A study of Mus musculus with 6 samples.

Results

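The heat shock chaperones of the cytosol and the mitochondria were described here through 44 genes, taken by gene symbol from a list drawn up for this description: the heat shock transcription factors, the HSP70, HSP110, HSP90, HSP40 and small heat shock protein families, their co-chaperones, the mitochondrial chaperonin and the TRiC chaperonin. All 44 symbols were found among the 54532 genes of the table. All 44 were also among the 15144 genes with a mean of at least 0.5 FPKM that entered the test. FPKM is fragments per kilobase of gene, scaled to a library total that is close to the reads assigned to genes. The rule matches symbols and uses no measured value, but the list was drawn up with earlier results of these data known. The study set 3 p53-deficient libraries beside 3 wild-type (WT) libraries, all from haploid embryonic stem cells (haESCs) of mouse strain 129SV. No treatment, heat shock or time point was given for either group. The titles call the p53-deficient libraries P53ki, the genotype field gives a haploid line without p53, and the series design speaks of a knockout. The labels do not say how the allele was made, how many clones it stands for, or whether each replicate was its own culture. The p-values below therefore rest on library-to-library spread alone, and that spread may be technical. Ploidy was not measured in these files.

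Molecular chaperones bind unfolded or partly folded proteins and let them fold, be transported or be degraded instead of aggregating. HSP70 proteins work in cycles of ATP binding and hydrolysis. HSP40 (J-domain) proteins bring them substrates and start the hydrolysis, and HSP110 and BAG proteins release the ADP. HSP90 takes clients such as kinases and steroid receptors over from HSP70, while TRiC and the mitochondrial HSP60/HSP10 chamber enclose their clients. HSF1 is the transcription factor that drives the stress-inducible members of these families when unfolded proteins accumulate. Pluripotent stem cells are known for high levels of many of these chaperones without any stress.

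Trp53, the gene that encodes p53, had 9.71, 9.71 and 9.98 FPKM in the p53-deficient libraries, against 64.5, 69.8 and 69.6 FPKM in the WT libraries. Each library held 11536412 to 21218976 reads assigned to genes. Pluripotency genes were present in both groups: of 12 embryonic stem cell markers, all tested, 6 rose, 5 fell and 1 did not pass. Summed, these markers had 2867 ± 58.7 FPKM in p53-deficient and 3598 ± 34.2 FPKM in WT cells (SD, n = 3 each). Pou5f1 averaged 407 FPKM in p53-deficient and 371 FPKM in WT cells, and Utf1 303 FPKM against 61.6 FPKM. Nanog averaged 221 FPKM in p53-deficient and 330 FPKM in WT cells, and Dppa5a 1075 FPKM against 2007 FPKM. The groups also differed in markers of another cell type. Of 30 fibroblast markers, 28 were tested and all 28 fell. Their summed level was 692 to 727 FPKM in the p53-deficient libraries, against 2281 to 2294 FPKM in the WT libraries, and no listed marker was at 0 in every library of either group. Reads of 4 Y-linked genes came to 103 in the p53-deficient libraries and 1161 in the WT libraries. The part that other cells in the cultures had in the results on chaperone genes was not tested, and fewer cells of a type and less RNA per cell cannot be told apart in bulk libraries.

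Most of the chaperone genes were modestly higher in the p53-deficient cells, and a few with very different roles were lower (the plot of all members by role shows each of them). At an adjusted p under 0.05 in limma, 29 of the 44 rose, 7 fell and 8 did not pass. Among all genes tested, 35.3% passed as higher and 31.3% as lower, so differences of this kind were common in the whole table. The members' median log2 fold change was 0.20, on the log2(FPKM + 1) scale used throughout, while the median of all genes was 0.03. The 29 that rose did so by 1.08-fold to 2.08-fold as a ratio of mean FPKM, with a median of 1.27-fold. Only 3 members, Hsph1, Dnajb4 and Hspb8, differed by 2-fold or more on the log2 scale. The p53-deficient and WT libraries did not overlap, with p53-deficient higher, for 31 members (37.7% of all genes tested). They did not overlap, with p53-deficient lower, for 8 members (33.7% of all genes tested). Replicates were close: the median coefficient of variation over the members was 2.56% in the p53-deficient and 1.63% in the WT libraries. Summed over all 44 genes, the level was 8669 ± 97.2 FPKM in p53-deficient and 7807 ± 13.2 FPKM in WT cells (SD, n = 3 each).

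**Figure D1:**
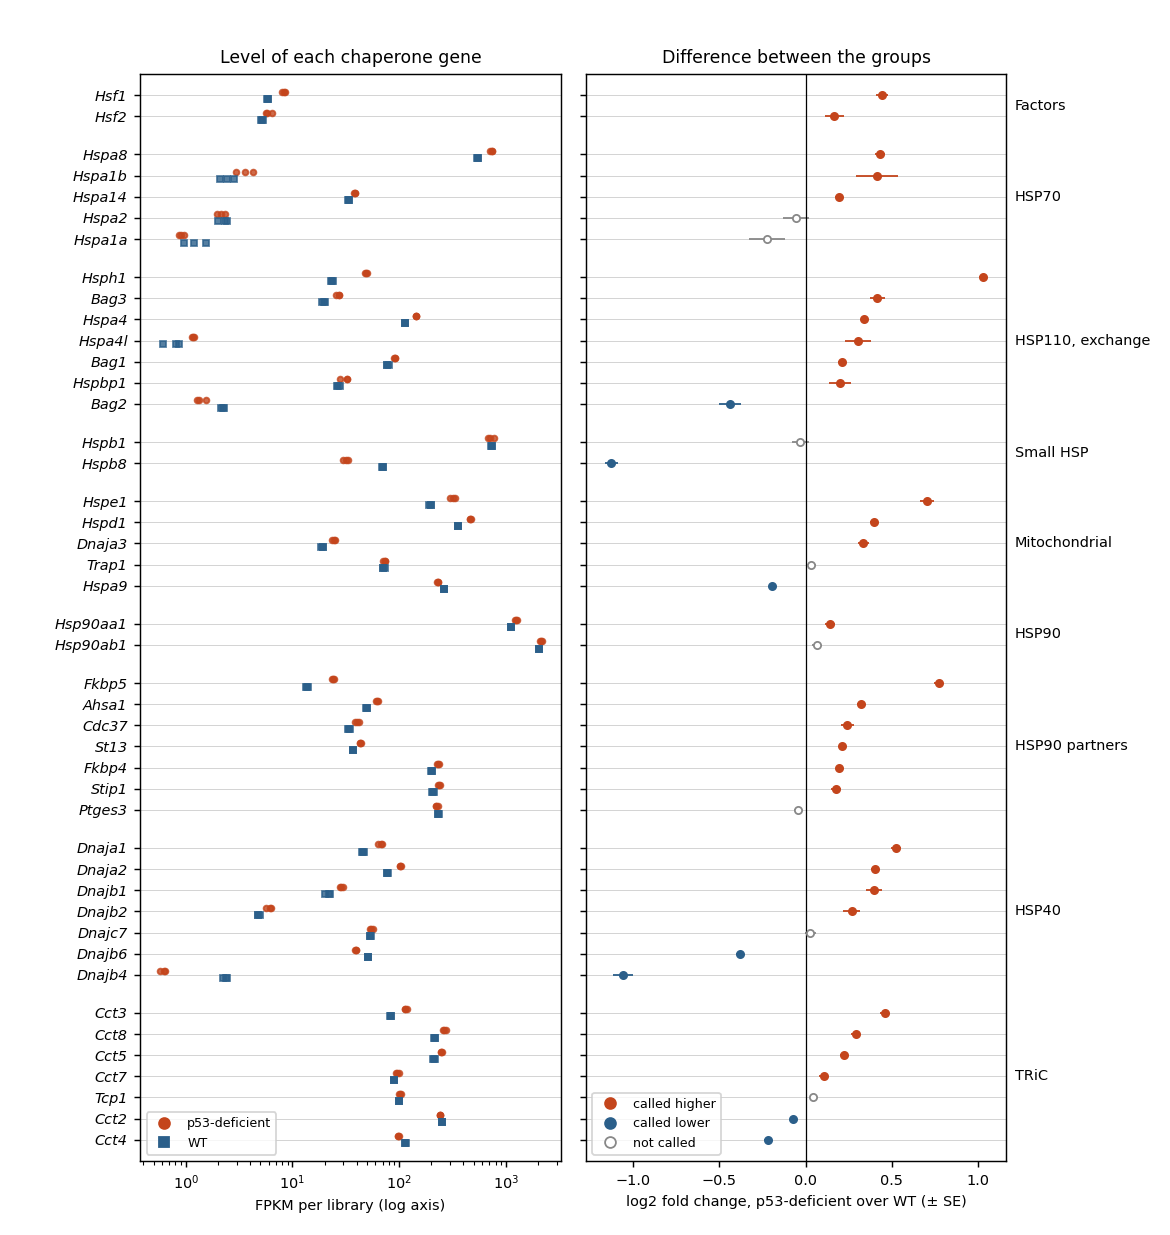
The left panel plots FPKM per library on a log axis for each of the 44 genes, grouped by role, with circles for the 3 p53-deficient and squares for the 3 WT libraries. The right panel plots the log2 fold change of p53-deficient over WT on the log2(FPKM + 1) scale with its SE. Of the 44 genes, 29 lie to the right of 0 as called higher, 7 to the left as called lower and the 8 open circles, the farthest from 0 being Hspa1a at -0.22, were not called.

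The counts and the size of the difference moved with how the libraries were scaled. In one scaling, each library was divided by its median ratio to the others, taken only over genes averaging about 5 FPKM or more. This scaling moves the median of all genes by -0.08 on the log2 scale, from 0.03, so it does not centre the whole table. It gave 25 members higher and 9 lower, with a members' median of 0.11. Over the whole table, the number of all genes called higher was 4258 and that of all genes called lower was 5611 under this scaling, against 5341 and 4733 without it. Quantile normalization gave 28 members higher and 8 lower, with a members' median of 0.14. The numbers of all genes called under quantile normalization are not given here, so these counts stand without that comparison.

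The promoter sequence of the members was read next. RefSeq windows of 250 bases before to 50 bases after the start (build GRCm38.p6, which has the coordinates of mm10) were matched for 37 of the 44 genes. They were searched on both strands for the heat shock element, the HSF1 recognition motif, written as 3 alternating units (GAANNTTCNNGAA and its reverse complement TTCNNGAANNTTC, which can overlap). It was found for 4 of the 37 members (10.8%), Hspe1, Hspd1, Hsph1 and Dnajb6, and for 179 of 27025 genes with a window (0.662%), including 53 of the 10050 tested genes (0.527%). A match is a stretch of letters and was not tested for binding. The 3 windows below show the matched element in capitals, 5′ to 3′ on the strand of the gene, for the windows at chr1:55087898-55088197 (plus strand, Hspe1), chr5:149636266-149636565 (minus strand, Hsph1) and chr5:29735648-29735947 (plus strand, Dnajb6).
Hspe1: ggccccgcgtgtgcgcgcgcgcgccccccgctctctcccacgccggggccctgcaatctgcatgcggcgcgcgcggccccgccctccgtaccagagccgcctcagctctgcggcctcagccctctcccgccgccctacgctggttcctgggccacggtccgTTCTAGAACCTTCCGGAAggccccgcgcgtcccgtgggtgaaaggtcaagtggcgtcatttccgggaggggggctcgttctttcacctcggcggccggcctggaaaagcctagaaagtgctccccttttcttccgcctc
Hsph1: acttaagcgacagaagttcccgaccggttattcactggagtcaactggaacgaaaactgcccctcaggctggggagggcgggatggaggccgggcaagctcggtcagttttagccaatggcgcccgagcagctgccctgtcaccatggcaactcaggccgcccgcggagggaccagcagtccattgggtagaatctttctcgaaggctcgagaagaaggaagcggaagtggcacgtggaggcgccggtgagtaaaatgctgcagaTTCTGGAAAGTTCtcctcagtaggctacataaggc
Dnajb6: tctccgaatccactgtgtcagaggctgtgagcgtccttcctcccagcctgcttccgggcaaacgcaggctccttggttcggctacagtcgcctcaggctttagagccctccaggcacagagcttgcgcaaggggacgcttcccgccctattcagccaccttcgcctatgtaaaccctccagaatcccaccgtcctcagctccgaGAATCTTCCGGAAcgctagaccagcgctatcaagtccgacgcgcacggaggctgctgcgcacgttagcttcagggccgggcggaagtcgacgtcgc
The Hspe1 window holds 2 overlapping matches, at positions -89 to -77 and -84 to -72 from the start base, counted as 0. Hspd1 is transcribed the other way and has 2 RefSeq starts. The window of the start 216 bases from that of Hspe1 shares 285 bases with the Hspe1 window, and the capitals in the Hspe1 line are also the Hspd1 match. The window of the other Hspd1 start shares 4 bases with the Hspe1 window and holds no match. In the printed Hsph1 window the match lies 15 to 27 bases after the start, and 36 to 48 bases after it when counted from the other RefSeq start of the gene. In Dnajb6 it lies at -46 to -34 in the printed window and at -127 to -115 from the other start. Of these 4 genes, Hsph1, Hspe1 and Hspd1 rose and Dnajb6 fell. Of the 33 members whose window held no match, 22 rose, 4 fell and 7 did not pass. Among all genes tested, 35.3% were called higher and 31.3% lower. The 33 include Hspa1a and Hspa1b, which heat induces through HSF1. Only exact matches within the window were counted, so a window without a match does not mean a gene without an HSF1 site.

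Both heat shock transcription factors were low and somewhat higher in p53-deficient cells. Hsf1, the main activator of the heat shock response (ENSMUSG00000022556, chr15:76477422-76501913, plus strand, mm10), had 8.30, 8.03 and 8.58 FPKM in the p53-deficient libraries, against 5.73, 5.87 and 5.93 FPKM in the WT libraries. Every p53-deficient library was above every WT library, with a log2 fold change of 0.44 ± 0.0368 (SE; adjusted p = 6.37e-05). Hsf2, a related factor that can form mixed trimers with HSF1, had 5.76, 6.48 and 5.69 FPKM in p53-deficient and 5.36, 5.23 and 5.04 FPKM in WT libraries. The groups did not overlap, but the difference was small, at 0.17 ± 0.0543 (SE; adjusted p = 0.0321). The call of Hsf2 was lost under median-ratio scaling (log2 fold change 0.08, adjusted p = 0.234). It was also lost without p53-deficient replicate 2 (adjusted p = 0.0616) and without WT replicate 1, 2 or 3 (adjusted p = 0.0535, 0.0749 and 0.0975).

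The HSP70 family was dominated by its constitutive cytosolic member, which rose. Hspa8 (HSC70), which folds new proteins and uncoats clathrin vesicles, had 743, 706 and 733 FPKM in the p53-deficient libraries, against 530.2, 545 and 542 FPKM in the WT libraries. The groups were far apart, with a ratio of means of 1.35 and a log2 fold change of 0.43 ± 0.0281 (SE; adjusted p = 2.06e-05). Hspa14, an HSP70 that works at the ribosome with a J-domain partner, rose to 38.4 ± 0.632 FPKM in p53-deficient cells, against 33.4 ± 0.530 FPKM in WT cells (adjusted p = 0.000469). Hspa2, the member known for its role in male germ cells, was low, at 2.14 ± 0.178 FPKM in p53-deficient and 2.27 ± 0.22 FPKM in WT cells, and its libraries overlapped (adjusted p = 0.538). The mitochondrial member Hspa9, described with the mitochondrial chaperones, fell, so that of 6 HSP70 genes 3 rose, 1 fell and 2 did not pass. The shares among all genes tested were 35.3% higher and 31.3% lower.

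The stress-inducible pair Hspa1a and Hspa1b, which is induced strongly by heat through HSF1, had low counted levels in both groups, and only Hspa1b passed the test. Hspa1b (ENSMUSG00000090877, chr17:34956436-34959238, minus strand) had 4.24, 2.99 and 3.60 FPKM in p53-deficient and 2.44, 2.82 and 2.10 FPKM in WT libraries. It was higher in each p53-deficient library than in any WT library, with a log2 fold change of 0.41 ± 0.12 (SE; adjusted p = 0.0202). Hspa1a (ENSMUSG00000091971, chr17:34969190-34972156, minus strand) had 0.865, 0.904 and 0.955 FPKM in p53-deficient and 1.21, 0.957 and 1.56 FPKM in WT libraries. It did not pass, at -0.22 ± 0.105 (SE; adjusted p = 0.103), and its groups were separated only in the last digit, with 54, 31 and 50 reads in p53-deficient and 62, 56 and 95 reads in WT libraries. The transcripts of the 2 genes are 99.2% identical over 2201 aligned bases. How reads were split between them, and whether reads that match both were counted at all, is therefore uncertain. Their promoter windows were identical at 296 of 300 positions, at chr17:34972107-34972406 for Hspa1a and chr17:34959189-34959488 for Hspa1b, and the lines show the positions that differ in capitals.
Hspa1a: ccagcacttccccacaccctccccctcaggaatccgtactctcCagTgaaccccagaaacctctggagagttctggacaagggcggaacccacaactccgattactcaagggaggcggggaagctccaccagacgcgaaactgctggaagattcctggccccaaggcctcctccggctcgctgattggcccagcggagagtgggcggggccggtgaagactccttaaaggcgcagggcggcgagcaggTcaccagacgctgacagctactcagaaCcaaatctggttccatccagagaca
Hspa1b: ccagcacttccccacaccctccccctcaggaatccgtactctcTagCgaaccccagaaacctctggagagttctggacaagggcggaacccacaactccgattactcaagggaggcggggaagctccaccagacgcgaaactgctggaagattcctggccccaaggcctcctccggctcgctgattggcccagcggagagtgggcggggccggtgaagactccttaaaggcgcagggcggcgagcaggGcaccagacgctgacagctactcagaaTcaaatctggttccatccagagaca
Entered as 1 feature, with reads and lengths summed over both genes, the pair had 660 reads in p53-deficient and 608 reads in WT libraries. Its length-weighted mean level was 2.50, 1.92 and 2.24 FPKM in p53-deficient, against 1.81, 1.86 and 1.82 FPKM in WT libraries. That level was a little higher in every p53-deficient library and did not pass (log2 fold change 0.18 ± 0.0763 SE, adjusted p = 0.0724). The Hspa1b call was lost without p53-deficient replicate 1 (adjusted p = 0.0543) or 3 (0.0534) and without WT replicate 1 (0.0533) or 3 (0.0631). Hspa1a was called lower without WT replicate 2 (log2 fold change -0.32, adjusted p = 0.0288).

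Among the factors that reset HSP70 by nucleotide exchange, 6 of 7 rose and Bag2 fell (35.3% of all genes tested were called higher and 31.3% lower). Hsph1 (HSP105, the stress-inducible HSP110; ENSMUSG00000029657, chr5:149614287-149636376, minus strand), whose window holds the element shown above, had the largest rise of all 44 genes. It had 48.3, 49.6 and 48.9 FPKM in the p53-deficient libraries, against 23.1, 23.4 and 24.0 FPKM in the WT libraries. The p53-deficient level was 2.08 times the WT level in means, with a log2 fold change of 1.03 ± 0.0246 (SE; adjusted p = 3.11e-07) and no overlap. Its constitutive relative Hspa4 (APG-2) had 144, 144 and 145 FPKM in p53-deficient and 113, 114 and 113 FPKM in WT libraries, a smaller rise of 0.34 ± 0.0186 (SE; adjusted p = 9.63e-06). The Hsph1 level was thus 0.336, 0.345 and 0.338 of the Hspa4 level in p53-deficient libraries, against 0.204, 0.205 and 0.212 in WT libraries. Hspa4l, the third HSP110, was scarcely expressed, at 1.18 ± 0.0274 FPKM in p53-deficient and 0.765 ± 0.130 FPKM in WT cells (adjusted p = 0.0117).

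The BAG proteins did not move together. Bag3, which links HSP70 to HSPB8 and to selective autophagy, had 27.5, 25.3 and 27.1 FPKM in p53-deficient and 19.9, 20.4 and 18.9 FPKM in WT libraries. The groups were well apart (log2 fold change 0.42 ± 0.0424 SE, adjusted p = 0.000166). Bag1, which binds the proteasome as well as HSP70, rose to 90.2 ± 1.04 FPKM in p53-deficient cells, against 77.8 ± 1.91 FPKM in WT cells (adjusted p = 0.00036). Bag2, an inhibitor of the HSP70-linked ubiquitin ligase CHIP, fell. It had 1.34, 1.27 and 1.54 FPKM in p53-deficient and 2.14, 2.26 and 2.29 FPKM in WT libraries, with all p53-deficient libraries lower. Its log2 fold change was -0.44 ± 0.0635 (SE; adjusted p = 0.000905) on 214 reads in p53-deficient and 393 reads in WT libraries. Hspbp1, another exchange factor, was 31.1 ± 2.61 FPKM in p53-deficient and 26.9 ± 0.957 FPKM in WT cells (adjusted p = 0.0279). That call was lost without p53-deficient replicate 1 (adjusted p = 0.0847) or 3 (0.0843), without WT replicate 2 (0.0861) or 3 (0.0707), and under median-ratio scaling (0.179).

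The 2 small heat shock proteins, which hold unfolded proteins without using ATP, differed from each other. Hspb8 (HSP22, the partner of BAG3; ENSMUSG00000041548, chr5:116408491-116422864, minus strand) had 30.1, 31.8 and 33.2 FPKM in the p53-deficient libraries, against 71.2, 69.8 and 69.8 FPKM in the WT libraries. It had the largest fall on the log2(FPKM + 1) scale among the 44 genes, at -1.13 ± 0.0374 (SE; adjusted p = 1.13e-06), and the p53-deficient mean was 0.451 of the WT mean. Hspb1 (HSP25), among the most abundant of the 44, had 769, 676 and 704 FPKM in p53-deficient and 735, 736 and 722 FPKM in WT libraries, and the groups overlapped (adjusted p = 0.59). Without p53-deficient replicate 1, its highest library, Hspb1 was called slightly lower (log2 fold change -0.08, adjusted p = 0.0344), as it was under median-ratio scaling (-0.13, adjusted p = 0.0351). The Hspb8 level was 0.0391, 0.0470 and 0.0471 of the Hspb1 level in p53-deficient libraries, against 0.0968, 0.0948 and 0.0967 in WT libraries. The fibroblast markers that differed between the groups fell to 0.197 of their WT level in the median gene, with a range of 0.0785 to 0.798, and their part in the fall of Hspb8, Bag2 and Dnajb4 was not tested.

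**Figure D2:**
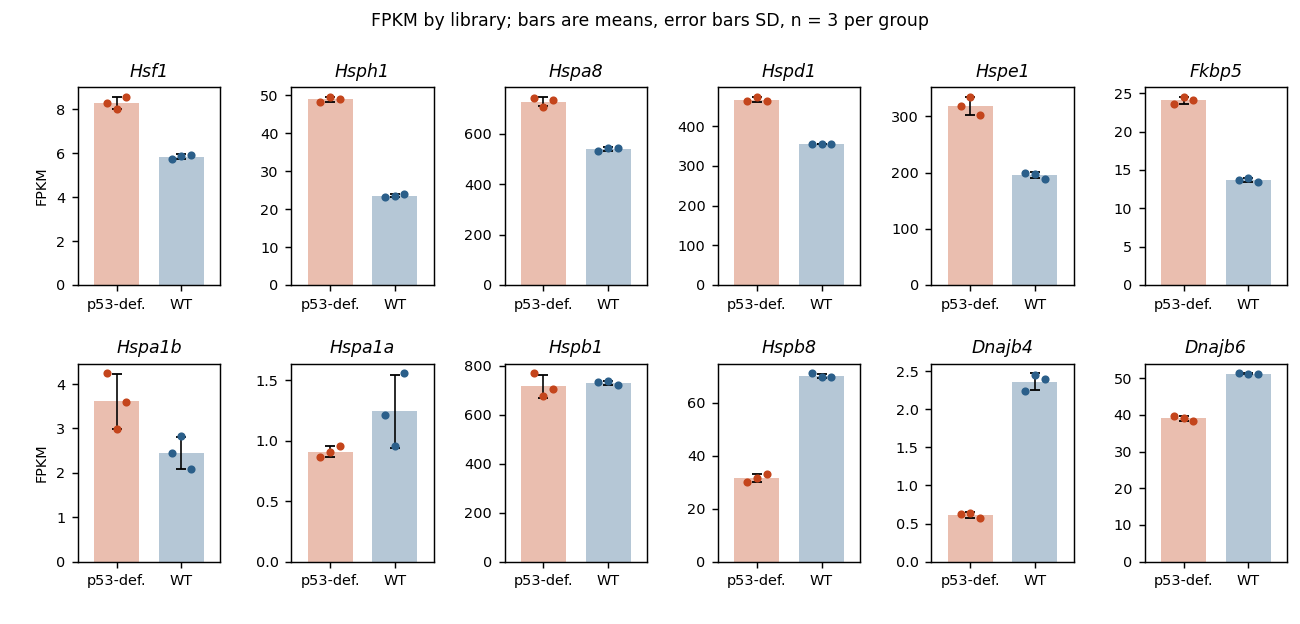
FPKM of a selection from the 44 genes, with 1 point per library, bars for the mean and error bars for the SD (n = 3 in each of the p53-deficient and WT groups, each panel with its own axis from 0). Hsf1, Hsph1, Hspa8, Hspd1, Hspe1 and Fkbp5 lie higher in every p53-deficient library, Hspb8, Dnajb4 and Dnajb6 lower in every one, and Hspb1 overlaps.

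In the mitochondrial matrix, the HSP60/HSP10 chaperonin rose while the mitochondrial HSP70 fell. Hspd1 (HSP60, which forms the folding chamber; ENSMUSG00000025980, chr1:55077835-55088243, minus strand) had 464, 474 and 463 FPKM in the p53-deficient libraries, against 354, 354 and 355 FPKM in the WT libraries. Its log2 fold change was 0.40 ± 0.0208 (SE; adjusted p = 7.88e-06), with the groups far apart. Hspe1 (HSP10, the lid of the chamber; ENSMUSG00000073676, chr1:55088132-55091307, plus strand), transcribed from the region printed above, had 319, 334 and 301 FPKM in p53-deficient and 199, 197 and 189 FPKM in WT libraries. It rose more, by 0.70 ± 0.0424 (SE; adjusted p = 1.47e-05), so that Hspe1 stood at 0.687, 0.706 and 0.652 of the Hspd1 level in p53-deficient libraries, against 0.561, 0.557 and 0.532 in WT libraries. The annotated exons of Hspd1 and Hspe1 share 4.2% and 7.6% of their bases, and the library kit is not stated to mark strand.

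Dnaja3 (TID1), the J-domain partner of mitochondrial HSP70, rose to 24.3 ± 0.782 FPKM in p53-deficient cells, against 19.1 ± 0.396 FPKM in WT cells (adjusted p = 0.000131). Hspa9 (mortalin), the HSP70 that pulls imported proteins into the matrix, had 231, 232 and 228 FPKM in p53-deficient and 264, 265 and 264 FPKM in WT libraries. It fell in every p53-deficient library relative to every WT library, by a modest -0.20 on the log2 scale (adjusted p = 0.000134). Trap1, the mitochondrial HSP90, was 73.0 ± 1.96 FPKM in p53-deficient and 71.4 ± 1.45 FPKM in WT cells, and its libraries overlapped (adjusted p = 0.38). Summed over the 5 mitochondrial members the level was 1113 ± 25.7 FPKM in p53-deficient and 904 ± 5.83 FPKM in WT cells.

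The HSP90 pair held the most RNA of any family and differed little between the groups. Hsp90ab1, the constitutive cytosolic HSP90, had 2158, 2093 and 2112 FPKM in the p53-deficient libraries, against 2021, 2034 and 2026 FPKM in the WT libraries. Every p53-deficient library was the higher, by so little that it did not pass (log2 fold change 0.06, adjusted p = 0.064). Its sign was not stable, at -0.03 under median-ratio scaling (adjusted p = 0.202) and 0.25 after quantile normalization (adjusted p = 3.15e-05). Hsp90aa1, the stress-inducible HSP90, rose to 1233 ± 27.2 FPKM in p53-deficient cells, against 1118 ± 9.58 FPKM in WT cells (log2 fold change 0.14 ± 0.0266 SE, adjusted p = 0.00316), and lost the call under median-ratio scaling (0.04, adjusted p = 0.209). The Hsp90aa1 level was 0.560, 0.603 and 0.582 of the Hsp90ab1 level in p53-deficient libraries, against 0.556, 0.544 and 0.554 in WT libraries. The pair made up 38.7% of the summed level of the 44 genes in p53-deficient and 40.3% in WT cells.

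Of the 7 partners of HSP90, 6 rose and none fell (35.3% of all genes tested were called higher and 31.3% lower). Fkbp5 (FKBP51), an immunophilin of steroid receptor complexes and a known glucocorticoid-responsive gene, rose most, with 23.6, 24.5 and 24.1 FPKM in p53-deficient and 13.7, 13.9 and 13.5 FPKM in WT libraries. The groups were widely separated (log2 fold change 0.77 ± 0.0277 SE, adjusted p = 1.55e-06). Its close relative Fkbp4 (FKBP52) was more abundant and rose less, to 231 ± 4.11 FPKM in p53-deficient cells, against 202 ± 1.63 FPKM in WT cells (log2 fold change 0.20, adjusted p = 0.000275). Ahsa1, which speeds up the ATPase of HSP90, rose to 62.5 ± 1.12 FPKM in p53-deficient cells, against 49.7 ± 0.610 FPKM in WT cells (adjusted p = 3.36e-05). Cdc37, the adaptor for kinases, rose to 40.3 ± 1.98 FPKM in p53-deficient cells, against 33.9 ± 0.461 FPKM in WT cells (adjusted p = 0.0014). Stip1 (HOP), which joins HSP70 to HSP90, and St13 (HIP), which stabilises the ADP-bound HSP70, rose by 0.18 and 0.21 on the log2 scale.

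Ptges3 (p23), which binds the closed form of HSP90, was the partner that did not pass. It had 230.03, 223 and 223 FPKM in p53-deficient and 233, 236 and 229.9 FPKM in WT libraries, and the groups overlapped narrowly (log2 fold change -0.05, adjusted p = 0.115). It was called lower without p53-deficient replicate 1 (adjusted p = 0.0425) and under median-ratio scaling (-0.15, adjusted p = 0.00075). A near-identical copy, Ptges3-ps, was listed at 205 ± 2.27 FPKM in p53-deficient and 221 ± 8.62 FPKM in WT cells, close to the level of Ptges3, so the division of reads between them is uncertain.

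Of 8 HSP40 genes, 5 rose, 2 fell and 1 did not pass, beside 35.3% higher and 31.3% lower among all genes tested. The 5 include Dnaja3, described with the mitochondrial chaperones. Dnaja1, a farnesylated cytosolic HSP40, had 67.0, 68.4 and 64.0 FPKM in the p53-deficient libraries, against 46.3, 45.0 and 46.4 FPKM in the WT libraries, with no overlap (log2 fold change 0.52 ± 0.0308 SE, adjusted p = 1.31e-05). Dnaja2, the HSP40 with the highest FPKM here, had 102, 102 and 103 FPKM in p53-deficient and 77.4, 78.5 and 76.4 FPKM in WT libraries (0.40 ± 0.0207 SE, adjusted p = 7.44e-06). FPKM divides by the annotated gene length, 8629 bases for Dnaja1 and 2975 bases for Dnaja2. In reads Dnaja1 was above Dnaja2, with 28727 against 15312 in p53-deficient and 22796 against 13259 in WT libraries. Both stood clearly higher in every p53-deficient library. Dnajb1 (HSP40 proper, the heat-inducible partner of HSP70 in disaggregation) rose to 28.6 ± 0.873 FPKM in p53-deficient cells, against 21.5 ± 1.26 FPKM in WT cells (adjusted p = 0.000341). Dnajb2, known from neurons, rose to 6.03 ± 0.360 FPKM in p53-deficient cells, against 4.84 ± 0.133 FPKM in WT cells (adjusted p = 0.0029). Dnajc7, which binds both HSP70 and HSP90, was 55.1 ± 2.05 FPKM in p53-deficient and 54.0 ± 0.40 FPKM in WT cells, with overlap (adjusted p = 0.459).

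Dnajb4 and Dnajb6, of the same subfamily as Dnajb1, fell. Dnajb4, a close homologue of Dnajb1, had 0.624, 0.642 and 0.569 FPKM in p53-deficient and 2.23, 2.45 and 2.39 FPKM in WT libraries. The p53-deficient mean was 0.259 of the WT mean, the lowest ratio among the 44 genes, on 268 reads in p53-deficient and 1193 reads in WT libraries. The Dnajb4 log2 fold change was -1.06 ± 0.0597 (SE; adjusted p = 1.1e-05) with a pseudocount of 1 and -1.79 with 0.1, since the pseudocount shrinks the change of a gene this low. Dnajb6, which suppresses the aggregation of polyglutamine proteins, was far more abundant, with 39.6, 39.3 and 38.3 FPKM in p53-deficient and 51.3, 51.2 and 51.1 FPKM in WT libraries. All p53-deficient libraries were below all WT libraries (-0.38 ± 0.0221 SE, adjusted p = 1.22e-05), and its window carries the element printed above.

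TRiC, the cytosolic chaperonin that folds actin and tubulin, is a ring of different subunits that assemble together, but the mRNAs of its 7 listed subunits moved unequally. Cct3 had 118, 113 and 113 FPKM in the p53-deficient libraries, against 84.0, 83.5 and 81.3 FPKM in the WT libraries, the largest rise of the complex (log2 fold change 0.46 ± 0.0266 SE, adjusted p = 1.24e-05). Cct8 rose to 265 ± 6.13 FPKM in p53-deficient cells, against 216 ± 2.34 FPKM in WT cells (adjusted p = 7.02e-05), and Cct5 to 246 ± 3.36 FPKM in p53-deficient cells, against 211 ± 3.62 FPKM in WT cells (adjusted p = 0.000187). Cct7 was 95.8 ± 3.08 FPKM in p53-deficient and 89.0 ± 0.118 FPKM in WT cells (adjusted p = 0.0145), a call lost under median-ratio scaling (adjusted p = 0.858). Tcp1, the alpha subunit, did not pass at 102 ± 1.79 FPKM in p53-deficient and 99.1 ± 0.403 FPKM in WT cells, and its log2 fold change of 0.04 was -0.05 under median-ratio scaling.

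Cct4 and Cct2 went the other way. Cct4 had 97.9, 98.9 and 96.5 FPKM in p53-deficient and 116, 114 and 113 FPKM in WT libraries, without overlap (log2 fold change -0.22, adjusted p = 0.000129). Cct2 had 244, 239 and 240.3 FPKM in p53-deficient and 252, 254 and 255 FPKM in WT libraries, also without overlap. Its difference of -0.07 (adjusted p = 0.0152) was the smallest among the 7 genes that fell, and the call was lost without WT replicate 2 (adjusted p = 0.0587) or 3 (0.0570). The remaining ubiquitous subunit, Cct6a, which is not one of the 44 genes, rose to 178 ± 2.89 FPKM in p53-deficient cells, against 137 ± 0.894 FPKM in WT cells (log2 fold change 0.37, adjusted p = 1.19e-05). Among the 7 listed subunits, the highest FPKM stood at 2.77 times the lowest in p53-deficient and 3.06 times the lowest in WT cells. FPKM divides by the annotated gene length, which runs from 2557 bases (Cct2) to 6778 bases (Cct7) here. In reads the same subunits lay closer, at 40917 for Cct8 and 32705 for Cct7 in p53-deficient libraries. In WT libraries they were 37334 for Cct2 and 30392 for Cct3.

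Chaperones outside the 44 genes were counted in the same fit, in which 35.3% of all genes tested were called higher and 31.3% lower. Of 50 other cytosolic folding genes tested (54 listed), 23 rose, 9 fell and 18 did not pass, with a median log2 fold change of 0.08, but 15 rose and 15 fell under median-ratio scaling. Cryab, a small heat shock protein abundant in lens and muscle, was the extreme, at 2.65 ± 0.328 FPKM in p53-deficient and 18.9 ± 1.24 FPKM in WT cells (log2 fold change -2.45, adjusted p = 8.94e-07). Dnaja4 and Hspb7 also fell, to 0.282 ± 0.0271 and 0.228 ± 0.155 FPKM in p53-deficient cells, against 1.09 ± 0.188 and 0.960 ± 0.160 FPKM in WT cells. These values rest on few reads, 50 for Dnaja4 and 28 for Hspb7 in p53-deficient libraries, against 225 and 153 in WT libraries. The prefoldin subunit Pfdn1, the most abundant that did not pass, was 106 ± 5.98 FPKM in p53-deficient and 106 ± 1.43 FPKM in WT cells. Of 20 genes of mitochondrial import and proteolysis, which include Dnaja3, 9 rose, 7 fell and 4 did not pass, with a median of 0.05, and 7 rose and 8 fell under median-ratio scaling. The import channel gene Timm23 and the protease gene Afg3l2 rose to 111 ± 12.5 and 58.4 ± 1.13 FPKM in p53-deficient cells, against 75.7 ± 1.99 and 43.1 ± 0.719 FPKM in WT cells. Hscb, a J-domain protein of iron-sulfur cluster assembly, fell to 20.8 ± 1.69 FPKM in p53-deficient cells, against 28.6 ± 1.27 FPKM in WT cells, and the import motor gene Pam16 did not pass (15.2 ± 0.885 FPKM in p53-deficient and 16.2 ± 0.404 FPKM in WT cells).

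The chaperones of the endoplasmic reticulum (ER), which answer to another stress pathway, were mostly lower. Of 20 ER genes, 3 rose, 14 fell and 3 did not pass, with a median log2 fold change of -0.24. Serpinh1 (HSP47), the collagen chaperone and itself one that HSF1 can induce, fell to 22.8 ± 1.35 FPKM in p53-deficient cells, against 114 ± 0.827 FPKM in WT cells (log2 fold change -2.28, adjusted p = 1.17e-07). Col1a1, a collagen gene and fibroblast marker, was 30.9 ± 0.86 FPKM in p53-deficient and 210.0 ± 4.45 FPKM in WT cells, and its part in these values was not tested. Sil1, the exchange factor of the ER HSP70, and Herpud1, of ER-associated degradation, fell to 5.51 ± 0.583 and 6.69 ± 0.620 FPKM in p53-deficient cells, against 10.4 ± 1.21 and 11.3 ± 0.331 FPKM in WT cells. Hspa5 (BiP), the ER HSP70 itself, was 187 ± 1.88 FPKM in p53-deficient and 191 ± 0.736 FPKM in WT cells and did not pass.

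Of 19 tested genes (21 listed) outside the 44 that are also linked to HSF1 or heat shock, some of them shared with the cytosolic list, 4 rose, 12 fell and 3 did not pass, with a median of -0.21. Fos, an immediate early gene, rose to 48.9 ± 1.29 FPKM in p53-deficient cells, against 9.42 ± 1.22 FPKM in WT cells (log2 fold change 2.26, adjusted p = 1.46e-06). Ier5, another immediate early gene, fell to 1.96 ± 0.240 FPKM in p53-deficient cells, against 7.40 ± 0.10 FPKM in WT cells. Ubb, a polyubiquitin gene, was 447 ± 10.1 FPKM in p53-deficient and 420.2 ± 35.5 FPKM in WT cells and did not pass. The majority direction therefore differed between the 44 chaperone genes, where 29 rose and 7 fell, and this list, and no test of that difference was made.

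**Figure D3:**
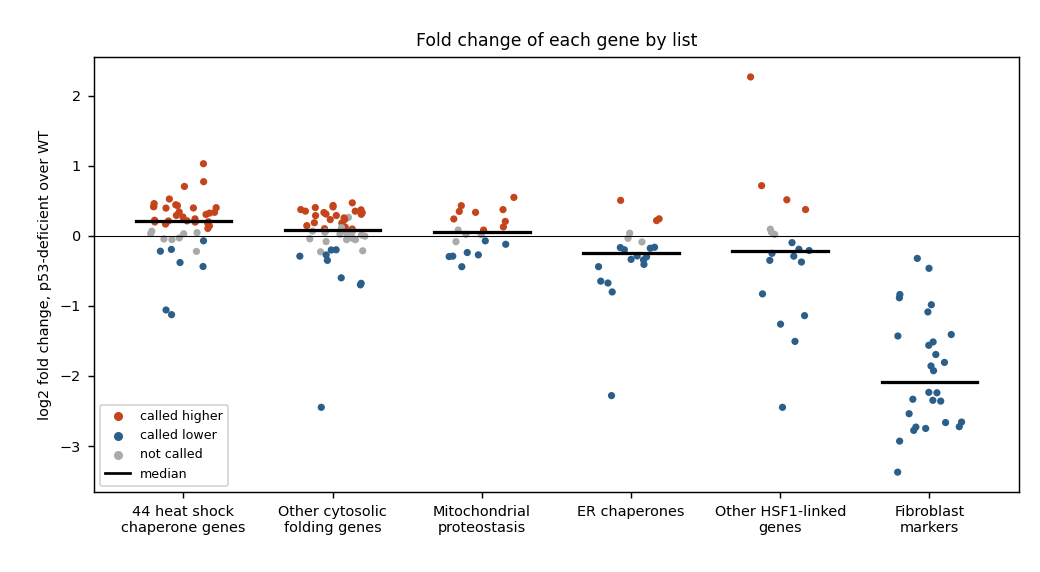
Each point is the log2 fold change of p53-deficient over WT, on the log2(FPKM + 1) scale, of 1 tested gene, and the black bars are medians. The median is 0.20 for the 44 heat shock chaperone genes, 0.08 for the other cytosolic folding genes, 0.05 for mitochondrial proteostasis, -0.24 for ER chaperones, -0.21 for other HSF1-linked genes and -2.08 for fibroblast markers.

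Many chaperone genes have processed pseudogenes, and reads could be divided between copies. A transcript of another gene matching at 95% identity or more was found for 15 of the 44 genes, and for 10 of them a tested copy existed. Gm15542, a copy of Dnaja1, was listed at 21.7 ± 2.12 FPKM in p53-deficient and 15.1 ± 1.27 FPKM in WT cells. Gm12346, a copy of Hsp90aa1, was 33.1 ± 2.10 FPKM in p53-deficient and 29.4 ± 2.03 FPKM in WT cells. The copies of Hspa8 and Hspd1, Gm8355 and Hspd1-ps3, were 12.0 and 10.5 FPKM in p53-deficient cells, against 8.74 and 8.04 FPKM in WT cells. In each of these 4 copies the p53-deficient mean was the higher, as in the parent gene. Dnajb6 had 3 tested copies. Of these, Gm6395 was 7.69 ± 0.0398 FPKM in p53-deficient and 8.95 ± 0.694 FPKM in WT cells, lower as in Dnajb6 itself. Gm13414 was 7.22 ± 0.989 FPKM in p53-deficient and 7.93 ± 0.887 FPKM in WT cells, a difference smaller than either SD. Values of the remaining copy, Gm2541, are not given here. Leaving out every tested gene with such a copy, an alternative chosen after seeing the data, left 34 of the 44 genes, of which 24 rose and 6 fell. The share of all genes called in that alternative is not given here. No member shared 20% or more of its exon bases with another gene.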

How the data were processed

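RNA was measured in 3 p53-deficient and 3 WT libraries made from poly(A)-selected RNA with a NEBNext Ultra kit, per the labels' protocols. The submitters' processing notes name HISAT2 2.0.5, featureCounts 1.5.0-p3 and the build mm10. The authors deposited 1 table of FPKM values per gene and library. Columns were matched to samples by group and trailing number. FPKM multiplied by gene length was divided by the value of 1 read, estimated in each library from the step between its low values. This gave whole reads for 100% of values (tolerance 0.001), and their sum was taken as the depth. The library total behind the FPKM values was 99.15% to 100.4% of that sum in p53-deficient and 101.2% to 101.4% in WT libraries. That slight difference in scaling between the groups was left in the FPKM values tested.

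FPKM values were tested on log2(FPKM + 1) with limma 3.58.1 in R 4.3.3, with a trended variance, over the 15144 genes with a mean of at least 0.5 FPKM. Benjamini-Hochberg adjustment ran over all of them, and calls were made under 0.05. For 1 gene alone, the smallest p that exact permutation of 3 and 3 libraries allows is 0.1. The fit was tested on simulated data. Replicate pairs differed by more than sampling noise (chi-square per degree of freedom 1.95 to 3.08), so none was counted as a duplicate. Same-numbered libraries did not deviate together (correlations -0.03 to 0.02), so the numbers were not used as pairs.

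Near-identical copies were found with BLAST+ 2.17.0 among GENCODE mouse release 21 transcripts (95% identity, 100 bases or more, and 50% or more of the shorter transcript covered). RefSeq promoter windows came from GRCm38.p6. The members and the other lists were chosen with earlier results of these data known. Values in every library were given for Hsf1, Hsf2, Hspa1a, Hspa1b, up to 8 called members with the largest change in each direction and the most abundant member of each role. Other members were given by their means or fold change. From each other list up to 3 called genes with the largest change and the most abundant gene that was not called were named. Abundance was ranked by FPKM, which depends on the annotated gene length.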

Additional observations from a re-analysis of the deposited data

How the results depend on the processing

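Over 17 alternatives of filter, pseudocount, scaling, test and left-out library, 24 to 30 members were higher and 5 to 9 lower. Some alternatives test fewer of the 44 genes, and the share of all genes called is not given here for each of them. In the main fit, 35.3% of all genes tested were called higher and 31.3% lower. When 1 library was left out, 26 to 28 members were higher and 6 to 9 lower. In the same fits, 4887 to 5155 of all genes tested were higher and 4381 to 4566 lower. The call never changed for 33 of the 44 genes, and 7 called members, Cct2, Cct7, Hsf2, Hsp90aa1, Hspa1b, Hspa4l and Hspbp1, lost it under at least 1 alternative. The members' median log2 fold change was 0.11 under median-ratio scaling, 0.14 after quantile normalization, 0.19 with voom on rebuilt reads and 0.20 to 0.21 when 1 library was left out. With a minimum mean of 5 FPKM, 2268 genes were lower in all, 3 other cytosolic folding genes were lower and 2 other HSF1-linked genes were higher. That filter tests fewer genes, and how many it tests or calls higher in all is not given here. The 2268 can therefore not be set against the 4733 lower of 15144 genes in the main fit. Under median-ratio scaling, 15 other cytosolic folding genes were higher and 15 lower. With the replicate number as a block, a pairing that the labels do not give, 29 members were higher and 7 lower (replicate block), and 0 of the 3 p53-deficient libraries correlated best with the WT library of their own number. No result changed direction with a call on both sides. Low read numbers limit what can be said of Hspa1a, Hspa1b, Hspa4l, Bag2 and Dnajb4, and of Dnaja4 and Hspb7 outside the 44 genes.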
